A study of Danio rerio with 5 samples.

Results

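The epidermis of the zebrafish embryo is a bilayer in which a surface sheet, the periderm, covers basal cells that sit on the basement membrane. All basal-cell libraries of the study, sorted on an itgb4 reporter at both ages, were taken here as one group and set against its periderm libraries, to describe the transcripts that basal cells of embryo and adult hold in common. The basal group held 3 libraries and the periderm group 2, which together are the 5 libraries of the study. Each gene was represented by 1 entry of the count table, and a gene counted as separated when each of the 3 basal libraries lay on the same side of both periderm libraries.

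The periderm libraries came from embryos 1 day post fertilization (dpf) of a line carrying 3 transgenes (krt4:creERt2, the reporter switch Olactb:loxP-dsRed2-loxP-egfp and cryaa:egfp), and 2 of the basal libraries from embryos of the same age carrying Tg(itgb4:mcherry). The remaining basal library was of adult Tg(itgb4:mcherry) cells sorted from the caudal fin. All fish descended from a Tubingen-derived wild type. Cells were isolated by fluorescence-activated sorting, and the study asked whether basal precursors already resemble basal cells just after the layers separate. The periderm and basal libraries thus differ in transgenic line as well as in cell layer, and the adult library differs from the embryonic ones in age and body site at once; these cannot be told apart here. Whether replicate libraries were made from different clutches is not stated in the labels, and the p-values therefore reflect no more than the differences among these samples, technical ones included.

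Basal keratinocytes anchor to the basement membrane through hemidesmosomes, in which the integrin of alpha-6 and beta-4 subunits binds laminin outside the cell and keratin filaments inside it. The transcription factor p63 maintains the basal program of stratified epithelia. Periderm cells are joined by tight junctions and desmosomes, bear actin microridges on their surface, and turn over by shedding.

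The libraries held between 3521994 counts (adult) and 7505594 counts (embryonic periderm 2) over gene symbols. The 10 most abundant genes took between 13.4% and 17.7% of counts in the embryonic libraries and 23.9% in the adult library. TMM scaling factors, which correct library sizes for composition, were 1.19, 1.19, 0.970 and 1.21 in the embryonic libraries and 0.601 in the adult. Levels below are TMM-scaled CPM, the read count relative to the scaled size of the library. A count of 3 was worth 1.47 CPM in the adult library and 0.337 to 0.562 CPM in the others.

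The basal markers were higher in the basal libraries. Itgb4, the beta-4 integrin whose promoter drives the sorting reporter, stood at 9.68 and 41.4 CPM in periderm, at 484 and 494 CPM in embryonic basal cells and at 4168 CPM in adult basal cells. Since cells were sorted on this promoter, its difference is a check of the sort. Tp63, which encodes p63, stood at 26.7 and 66.2 CPM in periderm, 193 and 217 CPM in embryonic basal cells and 369 CPM in the adult. Rbp4, a secreted carrier of retinol, stood at 17.5 and 17.9 CPM in periderm, 420 and 162 CPM in embryonic basal cells and 2798 CPM in the adult. For all 3 genes the lowest basal library lay above the highest periderm library. With DESeq2 and Benjamini-Hochberg adjustment over all genes, the basal group was higher by 6.13 on the log2 scale for itgb4 (SE 1.26, adjusted p = 0.00036), by 2.50 for tp63 (SE 0.79, adjusted p = 0.0431) and by 6.05 for rbp4 (SE 1.25, adjusted p = 0.00039). Over 11 alternative settings the adjusted p of tp63 ran from 0.00178 to 1 and passed 0.05 in 3; itgb4 passed in 10 and rbp4 in 9, the losses being without a periderm library (highest adjusted p 0.126 and 0.0887).

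Krt4, the keratin whose promoter marked the periderm, was lower in the basal libraries but abundant in the embryonic ones. It stood at 60682 and 30997 CPM in the periderm libraries, at 23763 and 18086 CPM in the embryonic basal libraries and at 210 CPM in the adult library. All 3 basal libraries lay below both periderm libraries, but the difference of -1.78 (SE 1.44) did not pass the DESeq2 test (adjusted p = 0.745). The edgeR fit with each age as its own group called krt4 lower, by -4.45 for the mean of the ages (adjusted p = 0.0208). In that fit krt4 stood at -1.13 in embryonic basal cells against periderm (SE 0.91, adjusted p = 0.62) and at -7.77 in the single adult library. The share of krt4 RNA that came from periderm cells in the basal sort was not tested.

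**Figure D1:**
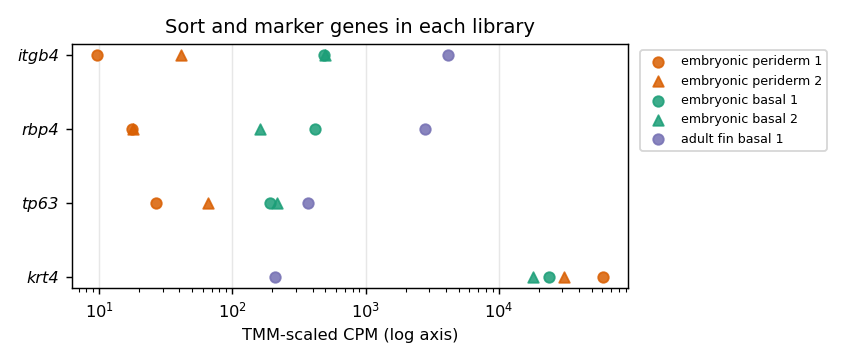
TMM-scaled CPM (log axis) of the sorting and marker genes in each of the 5 libraries; each point is 1 library. Itgb4, rbp4 and tp63 lie above both periderm libraries in all 3 basal libraries, while krt4 is at 18086 CPM or more in the embryonic basal libraries and reaches 210 CPM in the adult.

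Across the table, 15780 genes were tested. Of these, 1970 (12.5%) were higher and 2807 (17.8%) lower in all 3 basal libraries than in both periderm libraries, and 11003 overlapped. Scaling moved that balance: 41.2% of the separated genes were higher in basal cells under TMM, against 25.4% (1252 higher and 3675 lower) under total counts. The edgeR quasi-likelihood test, in which the spread of the basal group includes the difference between ages, called 0 genes higher and 0 lower (0% each; smallest adjusted p 0.117). At an unadjusted p under 0.05 it found 1595 genes, of which 716 were separated and higher and 817 separated and lower. DESeq2 on the same 2 groups called 609 separated genes at an adjusted p under 0.05, with 241 higher (1.54% of 15700 genes with an adjusted p) and 368 lower (2.34%). An edgeR fit with each age as its own group, testing the mean of the ages against periderm, called 901 higher and 1354 lower, including 238 of the 241 and 367 of the 368. The counts for gene lists below are to be read beside the shares over all genes. Those were 12.5% separated and higher, 17.8% separated and lower, 1.54% called higher and 2.34% called lower.

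The DESeq2 calls are the ones described below, and the alternatives counted for each gene are likewise DESeq2 fits. The number of calls depended on single libraries. Without embryonic periderm 1 DESeq2 called 20 genes higher and 21 lower, and without embryonic periderm 2 it called 15 and 40. Without embryonic basal 1 it called 107 and 134, without embryonic basal 2 it called 482 and 415, and without the adult library 543 and 833. Each of the 609 genes kept its direction in every one of these fits that tested it. That follows largely from the rule that only separated genes are called, so it is no support for them. The genes that passed in all 5 fits numbered 17, all lower in basal cells; among them were agr1, anxa1c, arl11, cldne, lye, mgll, stx11b.1, tgm1l4, uraha and vstm5. No higher gene passed in all 5, and 6 passed in 4, itgb4 and plat among them.

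The called genes differed in how they were placed within the basal group. The 241 higher genes had a median of 3.14 CPM in periderm, 20.7 CPM in embryonic basal cells and 108 CPM in the adult library. In 110 of them embryonic basal 1 was more than 2-fold above embryonic basal 2, which held for 2266 (14.4%) of all tested genes. The reverse held for 10 of the higher genes, beside 2453 of the 15780 tested genes. The 368 lower genes had medians of 18.8 CPM in periderm and 1.05 CPM in embryonic basal cells. Of them, 171 (46.5%) had 0 counts in the adult library, against 17.7% of all tested genes. In 61 of the lower genes embryonic basal 1 was more than 2-fold above embryonic basal 2, and the reverse held for 117. In sorted bulk RNA, fewer cells of a type and less RNA per cell cannot be told apart.

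**Figure D2:**
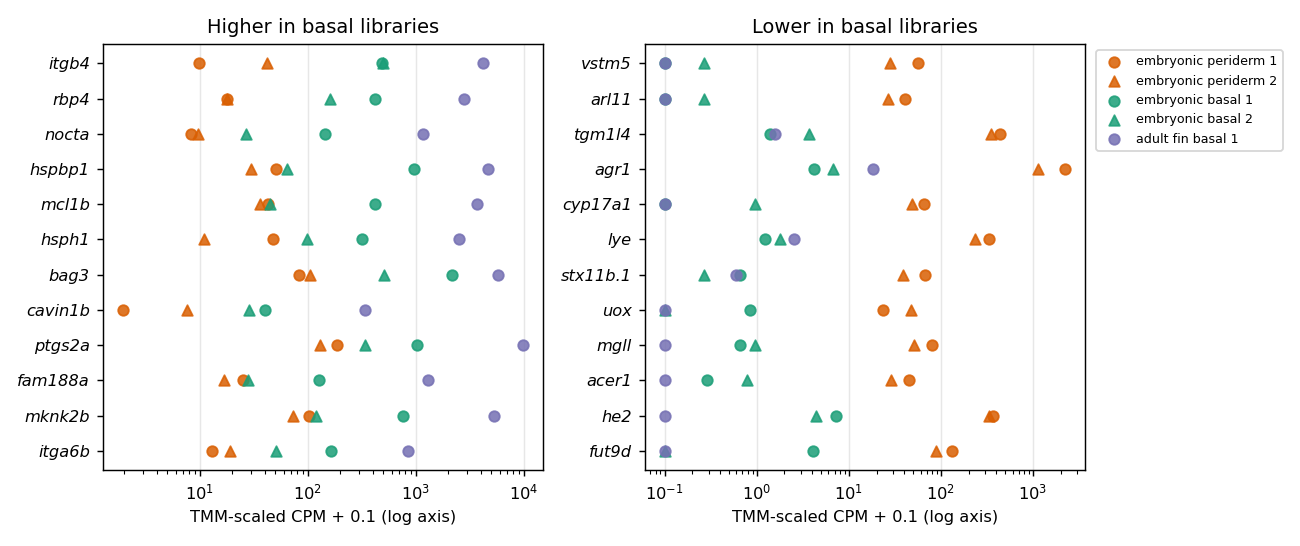
TMM-scaled CPM plus 0.1 (log axis) in each library for the 12 named genes per direction with the largest DESeq2 fold change and at least 20 CPM in every library of the higher group. The adult library is the highest of all in each gene of the left panel, and basal points of the right panel stay at or below 18.1 CPM.

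Laminin-binding integrins were the called genes among those of the hemidesmosome and its adhesion partners. Of 15 tested genes of the hemidesmosome and its adhesion partners, 3 were called higher (itgb4, itga6b and itga3a) and 0 lower, and 9 were separated and higher against 2 separated and lower. The median log2 fold change of the list was 1.78, beside -0.04 over all genes. Itgb4, on whose promoter the cells were sorted, is counted among the 3 and the 9 and in this median, and its part in them restates the sort. Itga6b, the alpha-6 partner of beta-4, stood at 12.8 and 18.9 CPM in periderm, 163 and 50.1 CPM in embryonic basal cells and 847 CPM in the adult (log2 fold change 4.53, SE 1.23, DESeq2 adjusted p = 0.0136). Itga3a, an alpha-3 subunit that pairs with beta-1 in laminin receptors, stood at 0.730 and 1.46 CPM in periderm, 5.24 and 6.46 CPM in embryonic basal cells and 98.7 CPM in the adult (log2 fold change 5.12, SE 1.45, DESeq2 adjusted p = 0.0192). Both genes were separated, and both fell out of significance without either periderm library (adjusted p up to 0.475 and 0.515). Without the adult library itga3a was also not called.

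Some anchoring genes were high almost only in the adult library, and DESeq2 gave them no adjusted p; the 2 described here were picked out after their values were seen. Krt15, a basal keratin, stood at 3.1 and 1.46 CPM in periderm, 10.9 and 5.78 CPM in embryonic basal cells and 1921 CPM in the adult. Col17a1a, the transmembrane collagen of hemidesmosomes, stood at 1.28 and 8.09 CPM in periderm, 16.3 and 10.19 CPM in embryonic basal cells and 1421 CPM in the adult. Both genes were separated between the groups, and in each the embryonic basal libraries lay far nearer to periderm than to the adult library. In all, 80 genes had no DESeq2 adjusted p, and 21 of them were separated and higher in basal cells; none of the 80 enters the counts of called genes.

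Of 21 tested genes of basal keratinocyte identity, tp63 was called higher and krt92 lower, and 10 were separated and higher against 1 lower (median log2 fold change 1.38). The summed level of the list did not follow in the embryo. It was 10922 and 6895 CPM in periderm, 6110 and 3244 CPM in embryonic basal cells and 62643 CPM in the adult. The sum thus exceeded periderm in the adult library alone. Krt92, a keratin, stood at 2603 and 1999 CPM in periderm, 472 and 218 CPM in embryonic basal cells and 85.5 CPM in the adult. It was thus lower in every basal library, by -3.21 on the log2 scale (SE 0.88, DESeq2 adjusted p = 0.0150). Krt92 was not called without either periderm library, without embryonic basal 2, or with a term for the replicate number in the fit.

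Matrix genes were called singly, beside 1.54% of all genes called higher, and their summed levels were highest in embryonic basal cells. Basement membrane genes summed to 1596 and 2917 CPM in periderm, 6865 and 6275 CPM in embryonic basal cells and 5526 CPM in the adult. Other matrix genes summed to 4572 and 6560, 17994 and 15969, and 6903 CPM in that order. As a share of counts the other matrix genes took 0.415% in the adult, below the 0.545% and 0.782% in periderm. By the same measure the basement membrane genes took 0.332% in the adult, which lay between the 0.190% and 0.348% in periderm. Of 42 tested basement membrane genes, ntn4 was called higher, 11 were separated and higher and 3 separated and lower (median log2 fold change 0.99). Ntn4, a netrin that binds laminin, stood at 0.183 and 0.674 CPM in periderm, 4.12 and 3.23 CPM in embryonic basal cells and 90.4 CPM in the adult (DESeq2 adjusted p = 0.00920). Of 36 other matrix genes, fn1b, a fibronectin, was called higher at 15 and 33.9 CPM in periderm, 173 and 117 CPM in embryonic basal cells and 721 CPM in the adult (log2 fold change 3.83, SE 1.07, DESeq2 adjusted p = 0.0170). Both were lowest in periderm and highest in the adult, and both were lost without either periderm library (adjusted p up to 0.355 and 0.628); ntn4 was also lost without the adult library.

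Serpinh1b, the collagen chaperone Hsp47 of the endoplasmic reticulum, was not highest in the adult. It stood at 204 and 248 CPM in periderm, 6946 and 1151 CPM in embryonic basal cells and 2290 CPM in the adult. The groups did not overlap, and the adult lay between the embryonic basal libraries (log2 fold change 3.89, SE 0.93, DESeq2 adjusted p = 0.00329). It was the 1 called gene of 23 tested genes of collagen synthesis, of which 8 were separated and higher and 0 lower (median log2 fold change 1.17). Its adjusted p rose to as much as 0.357, and it was lost without either periderm library and without embryonic basal 1.

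Outside the hemidesmosome, the integrins itgb3a and itgav were called higher. Of 42 tested adhesion genes, 20 were separated and higher and 4 separated and lower (median log2 fold change 0.97), and these 2 were the called members. Itgb3a stood at 6.21 and 4.61 CPM in periderm, 87.8 and 41.1 CPM in embryonic basal cells and 199 CPM in the adult (log2 fold change 4.36, SE 0.94, DESeq2 adjusted p = 0.00069). Itgav, whose alpha-V protein pairs with beta-3, stood at 12.1 and 41.6 CPM in periderm, 115 and 128 CPM in embryonic basal cells and 552 CPM in the adult (log2 fold change 3.35, SE 1.08, DESeq2 adjusted p = 0.0484). Periderm was below all basal libraries in both genes. Itgav passed in 4 of 11 alternatives, and itgb3a in 9, failing without either periderm library (adjusted p up to 0.919 and 0.244).

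Several secreted signals were higher in basal cells. Of 63 tested ligands and their inhibitors, 10 were called higher and 0 lower, 20 were separated and higher and 6 separated and lower, and 19 had 0 counts in the adult library (median log2 fold change 1.3). The called genes were the Wnt ligands wnt3a, wnt7aa, wnt9b and wnt10a, the Wnt inhibitor dkk1a, the endothelins edn1 and edn2, the growth factors csf1b and tgfb1a, and the chemokine cxcl12a. Among the 368 lower genes none came from this list.

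The Wnt ligands were low in periderm. Wnt3a had 0 and 0.112 CPM in periderm, 1.5 and 2.72 CPM in embryonic basal cells and 37.1 CPM in the adult (DESeq2 adjusted p = 0.0124), the periderm value resting on 1 count. Wnt9b stood at 2.19 and 13.6 CPM in periderm, 83.3 and 30.1 CPM in embryonic basal cells and 183 CPM in the adult (DESeq2 adjusted p = 0.0381). Wnt7aa was at 3.83 and 8.32 CPM in periderm, 36.7 and 12.7 CPM in embryonic basal cells and 239 CPM in the adult (DESeq2 adjusted p = 0.0478). In each the periderm libraries were lowest and the adult library highest. Wnt10a lay between 0.450 and 1.1 CPM in periderm and between 5.27 and 19.5 CPM in basal cells (DESeq2 adjusted p = 0.0169). Dkk1a, which blocks the Wnt co-receptor, stood at 1.64 and 3.82 CPM in periderm, 42.5 and 10.7 CPM in embryonic basal cells and 84.5 CPM in the adult (log2 fold change 4.08, SE 1.08, DESeq2 adjusted p = 0.0113). Without either periderm library wnt3a and dkk1a were not called, and dkk1a was also lost without embryonic basal 1. Of the 5 fits that left out a library wnt9b passed in 3, wnt10a and dkk1a in 2, and wnt7aa and wnt3a in 1. Some of these fits did not test wnt3a.

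For csf1b and cxcl12a the adult level lay below both embryonic basal libraries and above periderm. Csf1b, a ligand of the receptor that macrophages and yellow pigment cells depend on, stood at 7.30 and 3.15 CPM in periderm, 87.6 and 61.8 CPM in embryonic basal cells and 44.9 CPM in the adult (log2 fold change 3.61, SE 0.76, DESeq2 adjusted p = 0.00045). Cxcl12a, a chemokine that guides migrating cells, stood at 59.7 and 53.5 CPM in periderm, 287 and 278 CPM in embryonic basal cells and 206 CPM in the adult (log2 fold change 2.16, SE 0.57, DESeq2 adjusted p = 0.0105). All basal libraries exceeded both periderm libraries in each gene, and neither differed between the ages of basal cell by the test of that difference (edgeR log2 difference of adult from embryonic -0.73 and -0.46, adjusted p = 0.390 and 0.447). Csf1b passed in 9 of 11 alternatives, failing without embryonic periderm 2 and without embryonic basal 1 (adjusted p up to 0.361). Cxcl12a passed in 5, failing without any one of the embryonic libraries and under total counts among others (adjusted p up to 0.754).

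Of 26 tested retinoid genes, 2 were called, both higher: the retinol carrier rbp4, described above, and cyp26a1, an enzyme that degrades retinoic acid. Cyp26a1 stood at 16.8 and 21.5 CPM in periderm, 254 and 175 CPM in embryonic basal cells and 92.3 CPM in the adult. The groups did not overlap (log2 fold change 3.14, SE 0.71, DESeq2 adjusted p = 0.00154). Among the list, 4 genes were separated and higher and 4 separated and lower (median log2 fold change 0.47), beside 12.5% and 17.8% of all tested genes. These counts are near those shares and set the list apart in neither direction. Cyp26a1 was lost without either periderm library and without embryonic basal 1 (adjusted p up to 0.468).

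Some called genes had an adult level within 2-fold of the embryonic basal mean. The 6 most abundant of these were serpinh1b and 5 others. They were picked by that limit, so the nearness of the ages is no result about them. The embryonic mean can also hide a gap between its libraries, as for serpinh1b (6946 and 1151 CPM). Pfn1, a profilin that supplies actin monomers, stood at 1775 and 2608 CPM in periderm, 13682 and 6580 CPM in embryonic basal cells and 11646 CPM in the adult. Cotl1, a coactosin-like actin binder, stood at 181 and 188 CPM in periderm, 1176 and 677 CPM in embryonic basal cells and 1129 CPM in the adult. Tagln2, a transgelin of actin filaments, stood at 42.7 and 79.8 CPM in periderm, 610 and 282 CPM in embryonic basal cells and 706 CPM in the adult. In these genes the adult library was close to or between the embryonic basal libraries, and all lay above periderm. Lima1a, another actin crosslinker, ran from 53.7 to 70.24 CPM in periderm and from 143 to 847 CPM in basal cells. Lgals3b, a galectin, ran from 126 to 168 CPM in periderm and from 539 to 853 CPM in basal cells. The log2 fold changes of these 5 lay between 2.25 (lgals3b) and 3.12 (tagln2), with DESeq2 adjusted p between 0.00536 (tagln2) and 0.0313 (pfn1). None of the 5 passed in every alternative, and each was lost without either periderm library and without embryonic basal 1. Pfn1 and lgals3b were also lost without embryonic basal 2. The edgeR fit with each age as its own group did not call pfn1.

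Of 23 tested genes of actin and the apical surface, actn1 and aqp3a were called higher and 0 lower, with 7 separated and higher and 1 lower (median log2 fold change 0.75). Actn1, an alpha-actinin that bundles actin, stood at 69.0 and 124 CPM in periderm, 551 and 511 CPM in embryonic basal cells and 345 CPM in the adult (log2 fold change 2.26, SE 0.65, DESeq2 adjusted p = 0.0207). Aqp3a, a channel for water and glycerol, stood at 121 and 137 CPM in periderm, 634 and 495 CPM in embryonic basal cells and 4131 CPM in the adult (log2 fold change 3.82, SE 1.14, DESeq2 adjusted p = 0.0285). Both separated the groups; actn1 passed in 5 of 11 alternatives and aqp3a in 7, neither without a periderm library (adjusted p up to 1 and 0.579). Among 6 tested genes of a connexin and pannexin list, panx1a, a pannexin, was called higher and the connexin cx30.3, described below, lower. Panx1a stood at 1.64 and 1.12 CPM in periderm, 13.5 and 19.9 CPM in embryonic basal cells and 11.7 CPM in the adult (log2 fold change 3.44, SE 0.79, DESeq2 adjusted p = 0.00168). Without either periderm library and without embryonic basal 1 it was lost.

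Of 45 tested heat-shock and immediate-early genes, 7 were called higher and 26 overlapped between the groups. The list took 4.18% and 2.39% of counts in periderm, 13.6% and 4.74% in embryonic basal cells and 19.1% in the adult. The called genes were hsp90aa1.2, dnajb1b, bag3, hspa4a, hsph1, fosl2 and socs3a; 0 were called lower, and 19 were separated and higher against 0 lower (median log2 fold change 2.52). Bag3, a co-chaperone of HSP70, stood at 82.2 and 104 CPM in periderm, 2151 and 510 CPM in embryonic basal cells and 5750 CPM in the adult (log2 fold change 4.95, SE 1.09, DESeq2 adjusted p = 0.00099). Hsp90aa1.2, an HSP90 chaperone, stood at 1324 and 787 CPM in periderm, 10493 and 1684 CPM in embryonic basal cells and 44342 CPM in the adult (log2 fold change 4.2, SE 1.28, DESeq2 adjusted p = 0.0329). Periderm was lowest in both, and embryonic basal 1 lay several times above embryonic basal 2. Hsp70.1 itself overlapped, at 8107 and 3455 CPM in periderm, 26767 and 6739 CPM in embryonic basal cells and 56295 CPM in the adult. Reads of near-identical heat-shock copies may be shared between genes, and bag3 and hsp90aa1.2 were lost without either periderm library. Hsp90aa1.2 and hspa4a were also lost without embryonic basal 1 and under total counts.

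The genes with the largest fold change in the higher direction included several with that same unevenness. Besides itgb4, rbp4 and itga6b, they were nocta, hspbp1, mcl1b, hsph1, bag3, cavin1b, ptgs2a, fam188a and mknk2b, with log2 fold changes from 4.61 (mknk2b) to 5.72 (nocta). Hspbp1, an exchange factor of HSP70, stood at 50.6 and 29.8 CPM in periderm, 956 and 64.6 CPM in embryonic basal cells and 4625 CPM in the adult. Mcl1b, a survival factor of the BCL2 family, stood at 42.7 and 35.7 CPM in periderm, 420 and 44.9 CPM in embryonic basal cells and 3704 CPM in the adult. Embryonic basal 2 was thus barely above the higher periderm library for mcl1b (DESeq2 adjusted p = 0.0208), and embryonic basal 1 far above it in both genes (hspbp1 adjusted p = 0.00757). Cavin1b, a coat protein of caveolae, was more even between embryonic replicates, at 1.83 and 7.42 CPM in periderm, 39.9 and 28.4 CPM in embryonic basal cells and 338 CPM in the adult (log2 fold change 4.93, SE 1.32, DESeq2 adjusted p = 0.0119). Ptgs2a, a cyclooxygenase of prostaglandin synthesis, stood at 188 and 130 CPM in periderm, 1022 and 335 CPM in embryonic basal cells and 9893 CPM in the adult (log2 fold change 4.63, SE 1.37, DESeq2 adjusted p = 0.0279). The part of the stress genes' level, or of the difference between embryonic basal replicates, in these results was not tested. Without either periderm library nocta, hspbp1, mcl1b, hsph1, bag3, cavin1b, ptgs2a, fam188a and mknk2b were not called. Fam188a and mknk2b were also not called without embryonic basal 1, nor was fam188a without the adult library.

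Genes of the periderm identity list were among those lower in basal cells. Of 40 tested periderm identity genes, 10 were called lower (krt17, krt1-19d, anxa1b, anxa1c, cldne, cldnf, agr1, evpla, ppl and lye) and 1 higher (spaca4l). In that list 19 were separated and lower and 6 separated and higher, with a median log2 fold change of -1.12. Its share of counts was 12.3% and 6.71% in periderm, 3.78% and 3.27% in embryonic basal cells and 1.53% in the adult, of which krt4 alone made up 7.24% and 3.70% of counts in periderm. In TMM-scaled CPM the list summed to 102860 and 56265 in periderm, 38955 and 27138 in embryonic basal cells and 25503 in the adult. Without krt4 it summed to 42182 and 25268, 15192 and 9052, and 25294 CPM in the same order, so that the adult no longer lay below embryonic periderm 2.

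Agr1, a protein disulphide isomerase of the secretory pathway, stood at 2239 and 1130 CPM in periderm, 4.12 and 6.63 CPM in embryonic basal cells and 18.1 CPM in the adult (log2 fold change -7.46, SE 0.94, DESeq2 adjusted p = 8.06e-12). Lye, a Ly6-family surface protein of the outer epidermis, stood at 331 and 233 CPM in periderm, 1.12 and 1.70 CPM in embryonic basal cells and 2.44 CPM in the adult (log2 fold change -7.41, SE 0.79, DESeq2 adjusted p = 8.54e-17). Anxa1c, an annexin, stood at 3076 and 1745 CPM in periderm, 14.4 and 17 CPM in embryonic basal cells and 77.2 CPM in the adult (log2 fold change -6.03, SE 1.03, DESeq2 adjusted p = 3.67e-06). The groups lay far apart in each gene, lye alone being within a few counts of 0 in basal cells. All 3 passed in each of the 11 DESeq2 alternatives. The edgeR test of the same 2 groups called none of them (adjusted p = 0.236 for agr1, 0.117 for lye and 0.281 for anxa1c). Unlike krt4, their RNA was below 20 CPM in both embryonic basal libraries.

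Some genes of the cornified-envelope and junction lists were also called lower. Of 11 tested envelope genes 3 were called lower and 0 higher, with 6 separated and lower and 1 higher (median log2 fold change -3.49). The summed level of the list went another way in the adult, at 2628 and 1543 CPM in periderm, 405 and 240.2 CPM in embryonic basal cells and 3114.5 CPM in the adult. Tgm1l4, a transglutaminase that crosslinks surface proteins, stood at 437 and 346 CPM in periderm, 1.31 and 3.57 CPM in embryonic basal cells and 1.47 CPM in the adult (log2 fold change -7.52, SE 0.82, DESeq2 adjusted p = 3.76e-16). Ppl, the plakin periplakin, stood at 861 and 444 CPM in periderm, 32.8 and 19.2 CPM in embryonic basal cells and 53.7 CPM in the adult (log2 fold change -4.21, SE 0.81, DESeq2 adjusted p = 8.92e-05). Evpla, its partner envoplakin, stood at 395 and 192 CPM in periderm, 6.37 and 12.6 CPM in embryonic basal cells and 53.3 CPM in the adult (log2 fold change -3.58, SE 1.11, DESeq2 adjusted p = 0.0378). All were separated. Tgm1l4 passed in every DESeq2 alternative but not in the edgeR test of the same 2 groups (adjusted p = 0.130). Evpla was lost without any one of the embryonic libraries and ppl without embryonic periderm 1.

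Of 23 tested tight-junction genes, 2 claudins were called lower and 0 genes higher, with 8 separated and lower and 7 separated and higher (median log2 fold change -0.21). The list summed to 2402 and 1999 CPM in periderm, 2319 and 1193 CPM in embryonic basal cells and 4330 CPM in the adult. Cldne stood at 670 and 412 CPM in periderm, 3.93 and 6.80 CPM in embryonic basal cells and 19.5 CPM in the adult (log2 fold change -5.74, SE 0.95, DESeq2 adjusted p = 1.82e-06). Cldnf stood at 183 and 81.0 CPM in periderm, 5.62 and 3.57 CPM in embryonic basal cells and 8.79 CPM in the adult (log2 fold change -4.50, SE 0.83, DESeq2 adjusted p = 2.89e-05). Both claudins were lower in every basal library; cldnf was lost without embryonic periderm 1 (adjusted p up to 0.204). The connexin cx30.3 had 0 counts in all 3 basal libraries against 36.3 and 12.8 CPM in periderm, which is at least 29.05-fold lower when each basal library is set to 3 counts (DESeq2 adjusted p = 1.34e-05); it had no adjusted p without embryonic periderm 1 and passed in the other 10 alternatives. Of 15 tested desmosome genes only ppl and evpla, already counted above, were called, with 3 separated and lower and 1 higher (median log2 fold change 1.07). The desmosome list summed to 2755 and 1797 CPM in periderm, 1662 and 802 CPM in embryonic basal cells and 11229 CPM in the adult.

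Secretory genes went both ways. Of 17 tested, 4 were called lower (agr1, galnt6, cmah and duox) and prom2 higher, with 6 separated and lower and 5 higher (median log2 fold change -0.26). Galnt6, which starts mucin-type glycosylation, stood at 98.2 and 40.5 CPM in periderm, 1.69 and 1.53 CPM in embryonic basal cells and 5.37 CPM in the adult (log2 fold change -4.67, SE 0.97, DESeq2 adjusted p = 0.00040). Cmah, a sialic-acid hydroxylase, had 2 counts in all basal libraries against 55.1 and 15.3 CPM in periderm, a ratio of 234 (95% counting interval 64.7 to 1930). Duox, a dual oxidase that makes hydrogen peroxide, stood at 39.6 and 28.2 CPM in periderm, 0 and 0.170 CPM in embryonic basal cells and 1.95 CPM in the adult (DESeq2 adjusted p = 0.00433). Prom2, a prominin of membrane protrusions, stood at 1.46 and 2.36 CPM in periderm, 15.2 and 8.15 CPM in embryonic basal cells and 85.5 CPM in the adult (log2 fold change 4.29, SE 1.22, DESeq2 adjusted p = 0.0195). Each was separated. Galnt6, duox and prom2 were lost without embryonic periderm 1, and cmah, duox and prom2 without embryonic periderm 2 (adjusted p up to 0.351 for galnt6, 0.0795 for cmah, 0.458 for duox and 0.559 for prom2).

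Mgll, which hydrolyses monoglycerides, stood at 79.8 and 50.3 CPM in periderm, 0.562 and 0.849 CPM in embryonic basal cells and 0 in the adult (log2 fold change -6.92, SE 1.00, DESeq2 adjusted p = 1.03e-08). Acer1, an alkaline ceramidase, stood at 44.6 and 28.7 CPM in periderm, 0.187 and 0.680 CPM in embryonic basal cells and 0 in the adult (log2 fold change -6.76, SE 1.14, DESeq2 adjusted p = 2.39e-06). Stx11b.1, a syntaxin of vesicle fusion, stood at 67.0 and 38.9 CPM in periderm, 0.562 and 0.170 CPM in embryonic basal cells and 0.489 CPM in the adult (log2 fold change -7.14, SE 1.06, DESeq2 adjusted p = 2.8e-08). The basal levels of these genes were at or near the floor of 3 counts. Vstm5, a membrane protein with an immunoglobulin domain, and arl11, an ADP-ribosylation-factor-like GTPase, each had 1 count over all basal libraries. Their periderm-to-basal ratios were 559 (95% counting interval 100.4 to 22090) and 449 (80.5 to 17720). The steroid hydroxylase cyp17a1 stood at 66.1 and 48.7 CPM in periderm and at most 0.849 CPM in basal cells, urate oxidase uox at 23.2 and 47.4 CPM and at most 0.749 CPM, and the fucosyltransferase fut9d at 131 and 89.3 CPM and at most 3.93 CPM. Leaving out a library cost cyp17a1, acer1, uox and fut9d their call, each without embryonic periderm 1, uox and fut9d also without embryonic periderm 2, and fut9d without the adult library (adjusted p up to 0.0726, 0.0544, 0.261 and 0.483).

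Of 19 tested periderm transcription factors, DESeq2 called klf5b higher and 0 lower, and the 3-group fit called 4 higher and 1 lower, with 7 separated and higher and 1 lower (median log2 fold change 2.07). Klf5b, a Krüppel-like factor, had 0 counts in periderm, 2.43 and 0.680 CPM in embryonic basal cells and 19.5 CPM in the adult (DESeq2 adjusted p = 0.0118), and passed in 1 of the 5 fits that left out a library. Elf3, an epithelial ETS factor, stood at 20.1 and 8.32 CPM in periderm, 5.43 and 7.65 CPM in embryonic basal cells and 1325 CPM in the adult, so that the embryonic libraries were below periderm and the adult far above it. Its edgeR log2 fold change of 4.97 became -1.10 without the adult library, and DESeq2 gave it no adjusted p. Tfap2c, an AP-2 factor, stood at 62.4 and 90.7 CPM in periderm, 158 and 151 CPM in embryonic basal cells and 657 CPM in the adult, which did not pass the DESeq2 test (adjusted p = 0.270) and was called higher by the 3-group fit (log2 fold change 2.05, adjusted p = 0.0125). Spaca4l, a Ly6-family gene of the periderm list, was higher in basal cells, at 93.3 and 120 CPM in periderm, 996 and 564 CPM in embryonic basal cells and 2664 CPM in the adult (log2 fold change 3.75, SE 0.92, DESeq2 adjusted p = 0.00464), though not without either periderm library (adjusted p up to 0.410).

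**Figure D3:**
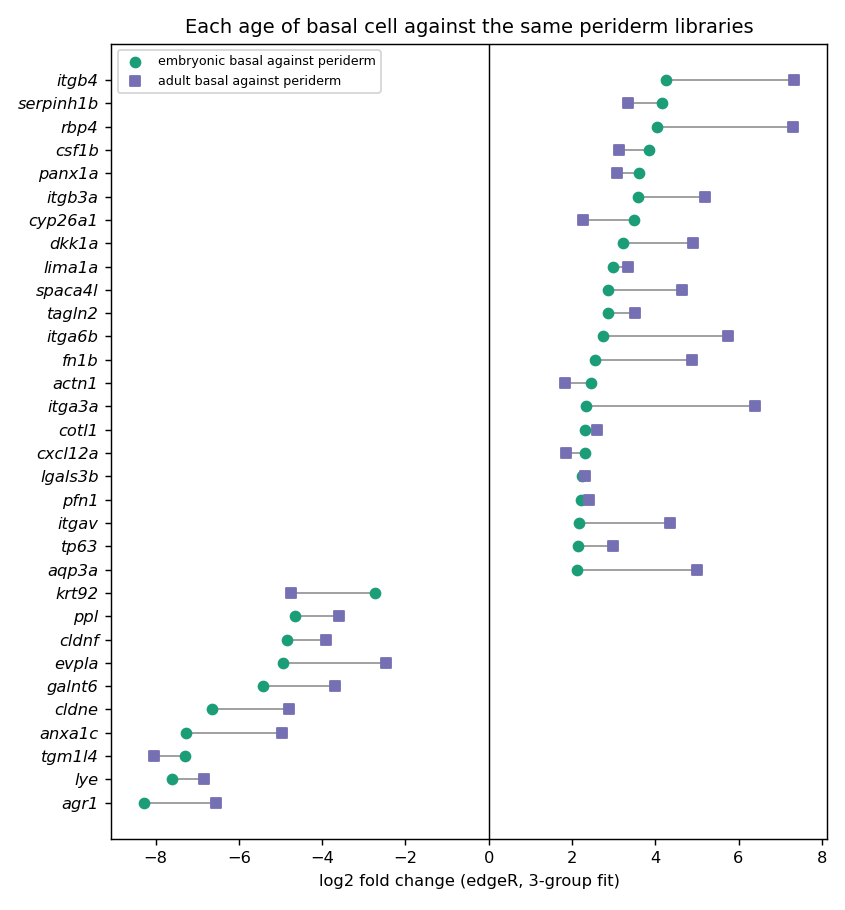
Log2 fold change of embryonic basal (circles) and adult basal (squares) libraries against the same 2 periderm libraries, from 1 edgeR fit with 3 groups, for named called genes. Rbp4 lies at 4.04 in the embryo and 7.30 in the adult, agr1 at -8.28 and -6.54; the ages share their periderm libraries, so the values are not independent.

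The ages of basal cell are given side by side, because both use the same periderm libraries. Against periderm, itgb4 was higher by 4.25 in embryonic and 7.34 in adult basal cells (edgeR, log2 scale), itga6b by 2.74 and 5.74, and cyp26a1 by 3.48 and 2.27. Tgm1l4 stood at -7.30 in embryonic and -8.04 in adult basal cells, and lye at -7.61 and -6.84. Taken by itself in this edgeR fit, embryonic basal against periderm passed for itgb4 (adjusted p = 0.0330), cyp26a1 (0.0113), tgm1l4 and lye (0.00473 each). It did not pass for itga6b (0.0577). Nor did it pass for the called genes tp63 (0.0644), hspbp1 (0.126), mcl1b (0.182) and pfn1 (0.147), among others. The direct test of adult against embryonic basal cells, in which the lone adult library is assumed to vary like the embryonic ones, called 1666 genes higher in the adult (10.6%) and 2145 lower (13.6%) over all 15780 genes. Within the 241 genes higher in basal cells, 107 were also higher in the adult and 0 lower; 63 had an adult level within 2-fold of the embryonic mean, 174 were more than 2-fold above it and 4 more than 2-fold below it. Within the 368 lower genes, 16 were higher in the adult and 14 lower. The calls weigh the adult level, since it is part of the basal mean, so these counts describe the called genes and support nothing about them.

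**Figure D4:**
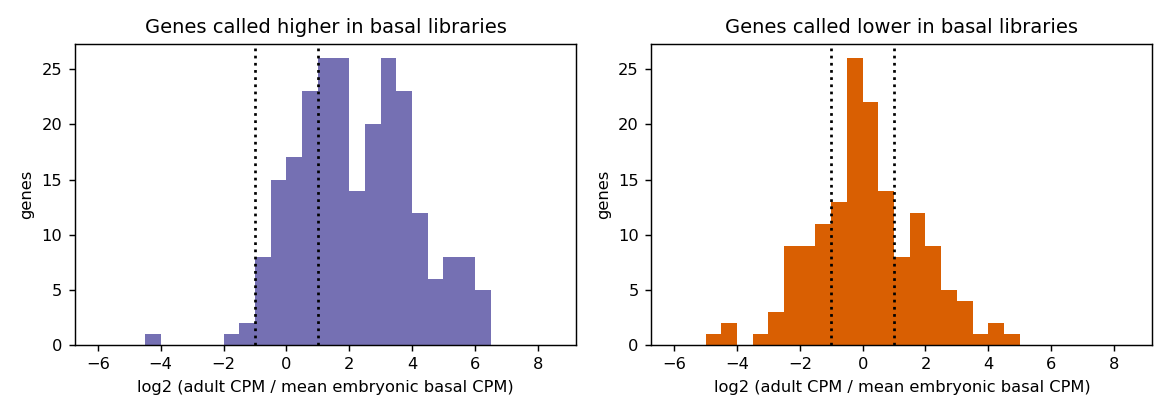
Number of genes by log2 ratio of adult CPM to mean embryonic basal CPM, for genes called higher (left) and lower (right) in basal libraries; dotted lines mark 2-fold. The median ratio is 4.26 for the 241 higher genes and 1.04 for the 153 lower genes with counts at both ages; 215 lower genes are not drawn.

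Marker genes of other cell types were also counted, lens genes first. Of 17 tested lens genes, 10 were called lower, 16 were separated and lower, and 16 had 0 counts in the adult. The list took 0.0363% and 0.0680% of counts in periderm, 0.00120% and 0.00434% in embryonic basal cells and 2.94e-05% in the adult, with a median log2 fold change of -4.28 (-4.27 with the 1 gene absent from basal cells at its bound). Crybb1, a beta-crystallin, stood at 65.9 and 127 CPM in periderm, 1.87 and 5.1 CPM in embryonic basal cells and 0 in the adult (log2 fold change -5.36, SE 1.19, DESeq2 adjusted p = 0.00104), and was lost without either periderm library (adjusted p up to 0.373). The periderm line alone carries cryaa:egfp, a lens reporter; its part in this result was not tested.

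Of 21 tested pigment-cell genes, 10 were called lower, 17 were separated and lower and 0 higher, and 14 had 0 counts in the adult (0.168% and 0.130% of counts in periderm, 0.00978% and 0.0233% in embryonic basal cells, 0.00438% in the adult; median log2 fold change -3.55). Pmela, a protein of melanosome fibrils, stood at 155 and 125 CPM in periderm, 7.49 and 12.4 CPM in embryonic basal cells and 2.44 CPM in the adult (log2 fold change -4.25, SE 0.85, DESeq2 adjusted p = 0.00019). Mitfa, the melanocyte master regulator, stood at 10.22 and 20.8 CPM in periderm and had 1 count over all basal libraries, a ratio of 206 (95% counting interval 36.9 to 8130). Sox10, a neural crest factor that the mesenchyme list shares, stood at 11.7 and 38.5 CPM in periderm, 2.81 and 3.23 CPM in embryonic basal cells and 0.489 CPM in the adult (log2 fold change -3.50, SE 1.03, DESeq2 adjusted p = 0.0258). All 3 were separated. Without embryonic periderm 2 none of them was called, and pmela and sox10 were also lost without embryonic periderm 1. Sox10 passed in 6 of 11 alternatives, with further losses without embryonic basal 1 and under total counts among others.

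Of 36 tested neural genes 3 were called lower (sncgb, sox1b and islr2) and 28 were separated and lower with 0 higher (0.327% and 0.190% of counts in periderm, 0.0560% and 0.1% in embryonic basal cells, 0.0118% in the adult; median log2 fold change -2.46). Of 25 blood and vessel genes 4 were called lower and 11 separated and lower with 0 higher (0.152% and 0.199% of counts in periderm, 0.0204% and 0.0491% in embryonic basal cells, 0.00156% in the adult; median -0.96). Among them the embryonic globin hbbe1.1 stood at 402 and 466 CPM in periderm, 11.8 and 36.2 CPM in embryonic basal cells and 0 in the adult (log2 fold change -4.81, SE 1.52, DESeq2 adjusted p = 0.0425); globin copies may share reads. It passed in 5 of 11 alternatives, with adjusted p up to 0.609 and losses without either periderm library and without embryonic basal 1.

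Of 17 ionocyte genes 2 were called lower and 8 separated and lower (0.112% and 0.218% of counts in periderm, 0.104% and 0.0828% in embryonic basal cells, 0.0710% in the adult; median -1.35), while in TMM-scaled CPM the list summed to 942 and 1825, 1075 and 687, and 1181 in that order. These included atp1a1a.2, a sodium pump subunit, at 101 and 553 CPM in periderm, 31.6 and 47.06 CPM in embryonic basal cells and 6.84 CPM in the adult (DESeq2 adjusted p = 0.0359), which passed in 5 of 11 alternatives and not without either periderm library (adjusted p up to 1). Of 10 hatching gland and yolk genes the protease he2 was called, at 370 and 333 CPM in periderm, 7.11 and 4.25 CPM in embryonic basal cells and 0 in the adult (log2 fold change -6.56, SE 1.18, DESeq2 adjusted p = 1.37e-05); the list took 0.187% and 0.242% of counts in periderm, 0.279% and 0.260% in embryonic basal cells and 1.27% in the adult (median 0.98), with 3 separated in each direction. Of 20 leukocyte genes mfap4 was called lower, at 42.5 and 93.4 CPM in periderm against at most 2.55 CPM in basal cells (DESeq2 adjusted p = 0.00018). That list took 0.0521% and 0.0620% of counts in periderm, 0.0440% and 0.0287% in embryonic basal cells and 0.0809% in the adult (median -0.33), with 6 separated and lower and 1 higher. He2 was lost without embryonic periderm 1 (adjusted p up to 0.0623) and mfap4 without embryonic periderm 2 (up to 0.226).

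Of 36 tested muscle genes DESeq2 called 0, edgeR found 1 at an unadjusted p under 0.05 and the 3-group fit called 2 lower; 2 were separated and lower, and 28 had 0 counts in the adult (3.24% and 8.17% of counts in periderm, 2.8% and 6.99% in embryonic basal cells, 0.000852% in the adult). Actc1b, a cardiac-type actin, stood at 10042 and 22599 CPM in periderm, 9884 and 20175 CPM in embryonic basal cells and 0.489 CPM in the adult. The periderm and basal libraries of the embryo overlapped, and the adult library lay apart from all of them. Of 31 mesenchyme genes sox10 alone was called, and 6 were separated and higher and 3 lower, beside 12.5% and 17.8% of all tested genes (median 0.39). The list took 0.293% and 0.433% of counts in periderm, 0.916% and 1.02% in embryonic basal cells and 0.251% in the adult. In TMM-scaled CPM it summed to 2458 and 3633, 9435 and 8447, and 4166 in that order. The matrix genes above are also made by mesenchyme, and the part of these cells in the result was not tested.

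**Figure D5:**
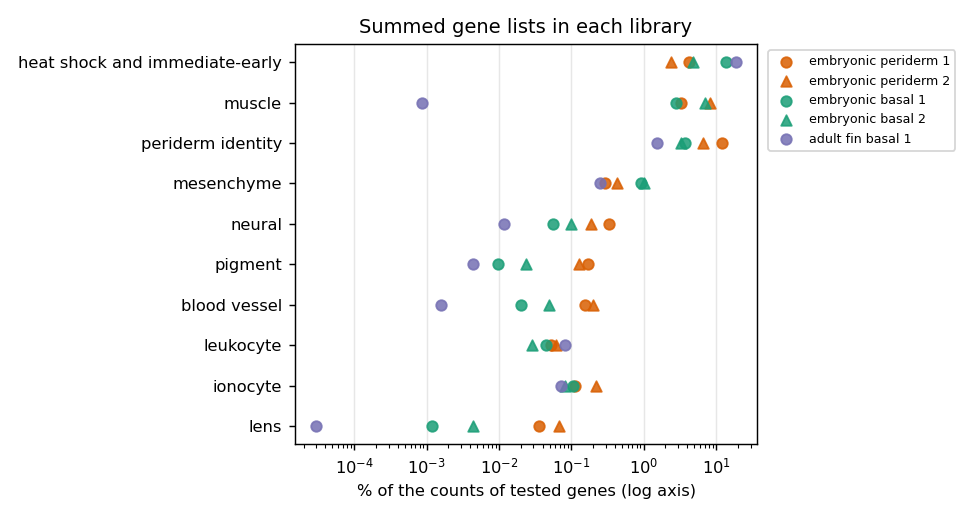
Share of the counts of tested genes (log axis, %) that each list of markers took in each library; each point is 1 library. Lens, pigment, neural and blood vessel genes are lower in all 3 basal libraries than in both periderm libraries, muscle genes are low in the adult library alone (0.000852%), and heat-shock and immediate-early genes are highest in the adult (19.1%).

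Genes of the cell cycle and of ribosomes were not called between the groups by DESeq2. Of 44 tested cell-cycle genes DESeq2 called 0 in either direction, edgeR found 0 at an unadjusted p under 0.05 and the 3-group fit called 10 lower and 1 higher; 15 were separated and lower and 1 higher (median log2 fold change -0.86). The list took 0.94% and 0.61% of counts in periderm, 0.48% and 0.61% in embryonic basal cells and 0.062% in the adult. Pcna, the sliding clamp of DNA replication, stood at 983 and 632 CPM in periderm, 567 and 575 CPM in embryonic basal cells and 285 CPM in the adult (DESeq2 adjusted p = 0.773). Rrm1 overlapped between the groups, at 625 and 312 CPM in periderm, 322 and 247 CPM in embryonic basal cells and 50.8 CPM in the adult (DESeq2 adjusted p = 0.704). Of 77 ribosomal protein genes DESeq2 and the 3-group fit called 0, and edgeR found 0 at an unadjusted p under 0.05; 4 were separated and higher and 1 lower (median log2 fold change 0.14). Rpl3 stood at 2912 and 2696 CPM in periderm, 2985 and 2785 CPM in embryonic basal cells and 3045 CPM in the adult; its log2 fold change of 0.07 (edgeR) became -0.31 under total counts.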

How the data were processed

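RNA was sequenced from 5 libraries of sorted zebrafish epidermal cells, grouped by their titles. The authors deposited raw read counts per transcript entry, together with RPKM and TPM values that, per the file headers, were derived for the same entries. RPKM and TPM as deposited were not used. The submitters' processing notes name featureCounts 2.0.3, HISAT2 2.2.1 and the GRCz11 build. Neither strand use nor the handling of multiply aligned reads is given in the sources used here, so reads of antisense partners and near-identical copies cannot be told apart. The table names no coordinates, and no sequence was used.

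The table had 75805 entries for 30849 symbols. For each symbol the entry whose mean count over the 5 libraries was highest was kept, so gene totals are smaller than entry totals. Of 57 symbols that a spreadsheet had turned into dates, 46 were recovered by accession from a RefSeq table of GRCz12tu, used for names alone. Genes passed filterByExpr on basal against periderm, and libraries were scaled by TMM in edgeR 4.0.16 (R 4.3.3). The test was the quasi-likelihood test (glmQLFit with legacy set to false) of the 3 basal against the 2 periderm libraries, with Benjamini-Hochberg adjustment, a threshold of 0.05 and no overlap between libraries. A fit with 3 groups gave each age its own value and the test between ages. The fits were first run on simulated counts with no difference between the ages of basal cell. That run therefore cannot show how they handle the age difference within the real basal group. Because edgeR called no gene, the rule for naming genes was applied to DESeq2 1.42.0 on the same groups, a choice made after the results were seen. List medians are edgeR log2 fold changes; fold changes beside a DESeq2 p are DESeq2's.

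Named were the markers, the 12 called genes per direction with the largest fold change and at least 20 CPM in each library of the higher group, up to 4 called members per direction of each of 30 lists reaching a mean of 10 CPM in the higher group (or the 2 most abundant where none was called), and 6 abundant called genes within 2-fold between ages. Further called list members given with values, and krt15, col17a1a and hsp70.1, were chosen after their values were seen. The lists held 981 entries, of which 909 matched the table. The members and lists were chosen with earlier results of these data known. Alternatives covered scaling, filters, entries summed per symbol, the other tools, a replicate block and leaving out each library. Those counted for single named genes are DESeq2 fits alone. Floors and intervals (95%, exact) cover counting error only.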

Additional observations from a re-analysis of the deposited data

Results flagged for a closer look

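The levels of several named genes differed between the ages of basal cell by the edgeR test of adult against embryonic basal libraries, adjusted over all genes, with 1 adult library against 2 embryonic ones. Each value is a log2 fold change of adult over embryonic basal cells. Among genes higher in basal cells, the adult lay above both embryonic libraries for ntn4 by 4.62 (adjusted p = 0.00425), wnt3a by 4.12 (0.00741), fam188a by 4.1 (0.0130), itga3a by 4.07 (0.00474), mcl1b by 3.99 (0.0317) and ptgs2a by 3.87 (0.0140). It lay above them for nocta by 3.76 (0.0190), hsph1 by 3.61 (0.0294), mknk2b by 3.58 (0.0323), cavin1b by 3.31 (0.0149), rbp4 by 3.27 (0.0118) and itgb4 by 3.09 (0.0275). Smaller differences in the same direction were those of itga6b at 2.99 (0.0198), prom2 at 2.87 (0.0138), aqp3a at 2.87 (0.00931), fn1b at 2.31 (0.0251) and itgav at 2.18 (0.0470).

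Among genes lower in basal cells, the adult again exceeded the embryonic libraries for evpla by 2.49 (adjusted p = 0.0258), anxa1c by 2.3 (0.0263) and cldne by 1.86 (0.0494). The adult was below the embryonic libraries for krt4, at -6.64 (0.0248). For he2 at -7.98 (0.0172) and hbbe1.1 at -10.1 (0.0128) the adult library had 0 counts, so these fitted values depend on the prior count and are no bound. Age, body site and the single adult library cannot be told apart in these differences.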

How the results depend on the processing

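The count of called genes depended on the tool and on single libraries. With edgeR the 0 calls in each direction held under other scaling, other filters, the older quasi-likelihood fit and entries summed per symbol; DESeq2 called 241 higher and 368 lower, and the 3-group fit 901 and 1354. Leaving out each library in turn, edgeR calls ran from 0 to 149 higher and from 0 to 396 lower, the upper values being without the adult library; DESeq2 calls ran from 15 to 543 higher and from 21 to 833 lower. DESeq2 called 111 higher under total counts, and in its other settings of scaling, filter and summing the counts stayed within 1.5 times the reported ones. Total counts also gave 33 genes lower in the adult among the called genes, against 14. The cause of these differences was not tested.

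The labels give both embryonic groups the same replicate numbers. Deviations of same-numbered libraries correlated at 0.243 over genes, but 2 pairs cannot show whether such libraries share a clutch or sort. Muscle genes took 3.24% (periderm) and 2.8% (basal) of counts in the libraries numbered 1, and 8.17% and 6.99% in those numbered 2. Pigment genes fell from number 1 to 2 in periderm (0.168% to 0.130%) and rose in basal cells (0.00978% to 0.0233%). The main fits left the numbers unpaired, and a shared origin was not tested. With a replicate block edgeR again called 0 genes, and DESeq2 called 60 higher and 232 lower. Of the 77 named genes that DESeq2 called, 30 were not called with the block, itga6b, itga3a, ntn4, fn1b, nocta, hspbp1, mcl1b, dkk1a and aqp3a among them. In that fit the adult library, whose title gives no number, was placed with the libraries numbered 1. The block therefore did not pair embryonic libraries alone, and the part of the adult library in the lost calls was not tested.

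Some named values turned in sign. Under total counts rps2 was at -0.0773 and rpl3 at -0.31 with both tools. Leaving out each library in turn, elf3 ran from -1.10 (without the adult) to 5.65 with edgeR and from -1.12 to 5.77 with DESeq2. The other turns were without embryonic periderm 2, the ranges being -0.00306 to 0.106 (edgeR) and -0.0272 to 0.108 (DESeq2) for rpl3, -1.98 to 0.552 and -2.06 to 0.477 for atp2a1, and -1.73 to 0.0113 (edgeR) for actc1b. None of these 5 genes was called. Every other named value kept its direction in each setting run. For separated genes this follows largely from their selection in the fits that left out a library. The adult library had the fewest counts, and 3 counts there are 1.47 CPM, so differences between ages below that level were not detectable.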
